A study of Homo sapiens with 8 samples.

Results

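Gene expression after inhibition of the histone methyltransferase EZH2 was compared in the 4 arrays labelled NALM-6: 2 with GSK126 at 0.5 uM and 2 with its vehicle DMSO, both for 72 hours. The comparison covered all genes for which a probe set carried a single gene symbol. Of 41097 such probe sets, 1 per gene was kept for 19775 genes, and 13161 of these lay above the array median on at least 2 of the 8 arrays of the series and were tested. The other 4 arrays came from a line labelled SUP-B8, treated in the same way. The labels call both lines acute lymphoblastic leukaemia and the 2 replicates of each group biological, and they give neither the EZH2 genotype of the lines nor whether a line was a single clone. The study's title concerns a substitution in EZH2 and raised H3K27 trimethylation.

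EZH2 is the catalytic subunit of Polycomb repressive complex 2 (PRC2), which it forms with EED and SUZ12. The complex places methyl groups on H3K27, and the trimethylated form marks genes that are kept silent; subunits of Polycomb repressive complex 1 (PRC1) bind this mark through their CBX proteins. GSK126 is a selective small-molecule inhibitor that competes with the methyl donor S-adenosylmethionine at EZH2. In the B lineage EZH2 is abundant in germinal-centre cells, where it holds back cell-cycle inhibitors and genes of plasma-cell differentiation.

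NALM-6 is known as a precursor B-cell line, and the arrays with that label did not carry the markers of such cells. Of 9 precursor markers, CD34 alone lay above the median on all 4 arrays, and DNTT, RAG1, RAG2, VPREB1, IGLL1, ERG, CD9 and CD24 lay below it in the probe sets used, while all 9 lay above it on all 4 arrays labelled SUP-B8. DNTT, the terminal transferase of immature lymphocytes, read 6.89 and 6.84 with DMSO and 6.73 and 6.57 with GSK126, against 13.58 and 13.76 on the SUP-B8 DMSO arrays. On all 4 arrays labelled SUP-B8, 3 of 7 mature B-cell markers and 4 of 5 germinal-centre markers lay above the medians. With DMSO, MS4A1 (CD20) read 8.10 and 7.96 there and BCL6 11.37 and 11.40. On the 4 arrays labelled NALM-6, 6 of 7 and 5 of 5 lay above the medians. In these, MS4A1 read 13.33 and 13.34 and BCL6 13.05 and 13.03 with DMSO. No myeloid marker of 4 and 2 of 5 markers of T or NK cells lay above the medians on all 4 arrays; the log2 of the summed level was 8.41 to 8.61 (DMSO) and 8.50 to 8.55 (GSK126) for the former and 9.57 to 9.72 and 9.68 to 9.75 for the latter. All results below are therefore those of the arrays labelled NALM-6. The conflict touches all 4, so no result can be given without them. Whether the line labels of the deposited arrays were exchanged was not tested; if they were, every value given for NALM-6 would belong to the other line, and each NALM-6 minus SUP-B8 difference would change sign.

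Values are log2 intensities. Replicate arrays correlated at r = 0.9979 (DMSO) and 0.9982 (GSK126) across probe sets, and arrays of different treatment at 0.9899 to 0.9903; array medians lay between 7.18 and 7.24. RNA integrity, read as the 3′ minus 5′ difference of control probe sets, was alike on the 4 arrays: -0.07 to 0.02 for ACTB, and for GAPDH -0.13 to -0.11. A probe set of the ribosomal RNA precursor, RNA45SN5, was among the most altered features: 10.35 and 10.28 with DMSO, 13.06 and 12.98 with GSK126 (2.70 ± 0.06, adjusted p = 2.21e-07), and 2.55 in its other probe set. In the arrays labelled SUP-B8 it gave a difference of 0.04. Its part in the gene differences below was not tested.

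With GSK126 a large share of the transcriptome differed, mostly by small amounts. A gene was called at a limma adjusted p under 0.05; 5178 of 13161 genes were called, or 39.3%, with 2741 higher (20.8%) and 2437 lower (18.5%). At an unadjusted p under 0.05 the count was 6189. The median size among called genes was 0.34 on the log2 scale, and 194 genes (1.47%) were called at least 2-fold higher and 91 (0.691%) at least 2-fold lower. Treatments did not overlap for 9057 genes (68.8%), a number that includes all 5178 called. The median difference of all genes tested was 0.02, and the median absolute difference was 0.14, against 0.071 for the same contrast in the arrays labelled SUP-B8, where 296 genes (2.25%) were called. The smallest two-sided p that an exact permutation of 2 arrays against 2 allows is 0.333, so the calls rest on the model, and their p-values on the labels' word that the replicates are biological. RNA was taken from whole cultures, in which fewer cells of a kind and less RNA per cell cannot be told apart.

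**Figure D1:**
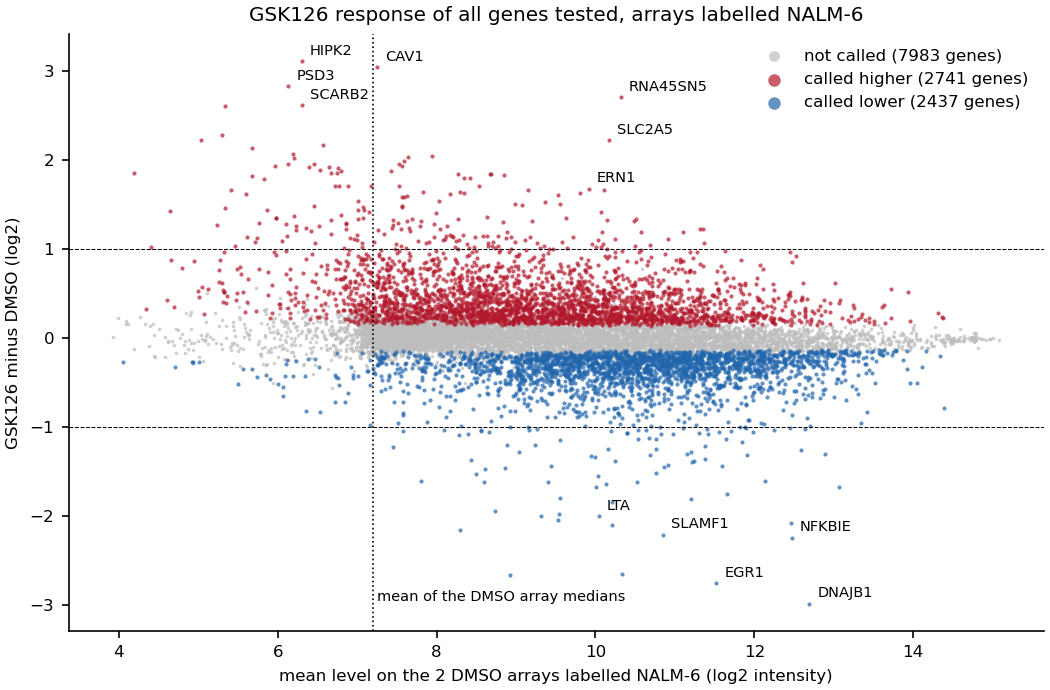
Difference between GSK126 and DMSO (log2, vertical) against the mean level on the 2 DMSO arrays labelled NALM-6 (log2 intensity, horizontal) for the 13161 genes tested; red and blue points were called higher (2741) and lower (2437), dashed lines mark 2-fold, and the dotted line marks the mean of the DMSO array medians. HIPK2 (a fitted 3.11) and CAV1 (3.04) lie highest and DNAJB1 (-2.985) lowest; for genes left of the dotted line the plotted difference is not a measured size.

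The transcript of the inhibited enzyme itself was not called. EZH2 read 11.17 and 11.25 with DMSO and 11.24 and 11.19 with GSK126, a difference of 0.01 ± 0.06 (adjusted p = 0.925), and the treatments overlap. Of the 11 PRC2 genes, all tested, 5 fell and none was called higher, with a list median of -0.12; over all genes tested 18.5% were called lower and 20.8% higher, and the counts of this and the following lists stand against those shares. Without the second DMSO array, or without the first or the second GSK126 array, 3 of the 11 fell. The falls were small and lay among the accessory proteins and the core: PHF19, a Tudor-domain partner, fell by 0.43, PHF1 by 0.31, AEBP2 by 0.25, the core subunit SUZ12 by 0.21 and the histone-binding RBBP7 by 0.17. EED (0.06 ± 0.05), EZH1 (-0.05 ± 0.05), RBBP4, MTF2 and JARID2 (0.15 ± 0.06, adjusted p = 0.0806) were not called. A second EED probe set read -2.14, so the mean over EED's probe sets was -1.04. After renewed quantile normalization JARID2 and EED were called higher (0.19 and 0.12), and against a 1.2-fold threshold none of the 11 was called.

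Of 16 PRC1 genes 7 rose (43.8%) and 5 fell (31.2%), or 3 fell without the first GSK126 array. CBX7, which binds trimethylated H3K27, read 9.04 and 9.01 with DMSO and 9.91 and 9.99 with GSK126, a rise of 0.93 ± 0.06. PCGF2 (0.77), PHC1 (0.75) and CBX2 (0.57) rose as well, although other CBX2 probe sets ranged from -0.33 to 0.19. Among the demethylases, acetyltransferases and trithorax partners that oppose or balance the mark, 2 of 16 rose (12.5%) and 7 fell (43.8%), with 4 falls without the second DMSO or the first GSK126 array. SETD2, the H3K36 methyltransferase, fell by 0.50, NSD2 by 0.37 and the H3K27 demethylase KDM6A by 0.34, and KMT2A rose by 0.36.

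Genes reported in cancers to be held silent by PRC2 were called at a share near that of all genes. The list held 25 genes; 15 passed the filter, of which 3 rose and 3 fell (20.0% each, against 20.8% and 18.5%), with a median of -0.02. TNFRSF21, a death receptor, rose from 7.49 and 7.69 to 9.63 and 9.53 (1.99 ± 0.07, adjusted p = 1.26e-06), and its other probe set gave 1.86. WNT5A rose by 0.87 and the CDK inhibitor CDKN1A by 0.37, while TXNIP fell by 0.44, RUNX3 by 0.35 and PEBP1 by 0.15. CDKN2A read 11.92 and 11.95 against 11.97 and 11.99, a difference of 0.04 ± 0.09, and TIMP2, TIMP3, VASH1, KLF2, PRDM1 and RAP1GAP were not called either. CNR1 was not called (-0.07), with a mean over its probe sets of 0.37. Of 32 genes listed as developmental transcription factors and Polycomb targets, 14 passed the filter. Of these 3 rose (21.4%) and 1 fell (7.14%), against 20.8% and 18.5% of all genes. SPIC, among those that rose, was listed although it is a factor of macrophages and B cells, and it is also on the ETS list. The 3 were TFAP2A (0.69), TBX3 (at least 0.12) and SPIC, an ETS factor of red-pulp macrophages and B cells, which went from 5.04 and 5.56 to 7.55 and 7.61 (at least 0.39); ZIC2 fell by 0.64. Members left out by the filter lay below the medians on at least 7 of the 8 arrays, so the data hold no size for them.

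Genes that rose from below the array medians were examined next, since the inhibited complex keeps genes silent. A gene was counted as crossing upward when it was called, lay below the array median on both DMSO arrays and above it on both GSK126 arrays. There were 150 such genes (1.14% of those tested) and 57 (0.433%) that crossed downward. A reading below the median is not shown to be above background, so only a lower bound is given, the GSK126 mean minus the DMSO array medians. That bound had a median of 0.40 and reached 2.22, and it was at least 2-fold for 22 of the 150; downward it had a median of 0.22, reached 1.70 and was at least 2-fold for 7 of the 57. For 142 of the 150 every probe set of the gene lay below the medians with DMSO. The definition requires high GSK126 readings, and 45 of the 150 passed the filter through those arrays alone, so these counts describe the list and support nothing. In the arrays labelled SUP-B8 the same definition gave 15 genes upward and 4 downward.

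HIPK2, a serine/threonine kinase that phosphorylates p53 and other nuclear proteins, had the highest bound. It read 6.20 and 6.41 with DMSO and 9.43 and 9.41 with GSK126, a rise of at least 2.22 (adjusted p = 2.21e-07). The other 9 probe sets of HIPK2 gave between -0.09 and 1.88, with 8 of 9 above 0. PSD3, an exchange factor for ARF6, rose from 6.20 and 6.07 to 8.998 and 8.93, by at least 1.77. SCARB2, the lysosomal membrane receptor that carries glucocerebrosidase, rose from 6.32 and 6.29 to 8.85 and 8.98, by at least 1.72, and its 3 other probe sets gave 0.20 to 2.29. The phospholipid transporter ABCB4 went from 6.43 and 6.71 to 8.71 and 8.75, by at least 1.54.

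Further down the order came genes of several roles. HEBP1, a haem-binding protein, rose by at least 1.48, the long non-coding RNA LINC02806 by at least 1.47, DOCK9, an exchange factor for CDC42, by at least 1.41 and PLAAT4, a retinoid-induced acyltransferase, by at least 1.401. SPARC, a secreted matrix glycoprotein, read 6.76 and 6.54 against 8.64 and 8.50, a rise of at least 1.37. ABAT, which breaks down GABA, rose by at least 1.36 and RHPN2 by at least 1.33. IL6ST, the shared signal chain of the interleukin-6 receptor family, read 6.61 and 6.73 against 8.58 and 8.48, a rise of at least 1.33, although its other 6 probe sets spread from -0.16 to 0.87. CADPS, FABP6 and SEPTIN11 closed the first 15 with bounds of 1.29, 1.25 and 1.23. GIMAP2, a lymphocyte GTPase outside these 15, read 6.19 on both DMSO arrays and 8.24 and 8.29 with GSK126, by at least 1.07; of the 7 GIMAP genes, 2 passed the filter.

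The genes that crossed upward were also read in the other line. Of the 150, 89 lay above the medians on all 4 arrays labelled SUP-B8, and no like share was counted for other genes low with DMSO. This is a smaller share than over all genes. Of the 13161 tested, 11122 lay above the medians on those 4 arrays and both DMSO arrays labelled NALM-6. A further 583 did so on those 4 but on neither of these DMSO arrays. The filter counted the SUP-B8 arrays as well. With GSK126, 12 of the 150 were also called higher in the arrays labelled SUP-B8, where 296 of 13161 genes (2.25%) were called in either direction. For 114 of the 150 the difference between the responses of the lines was called, against 25.4% of all genes tested. The 150 were chosen by their response in the arrays labelled NALM-6, so this is a description. Counted the other way, 583 genes lay below the medians on both DMSO arrays labelled NALM-6 and above them on all 4 arrays labelled SUP-B8; 189 of these (32.4%) were called higher with GSK126 and 38 (6.52%) lower. Among 11122 genes above the medians in both sets of arrays, 20.5% were called higher and 19.9% lower. The DMSO arrays chose these sets and also enter the difference, so the shares are a description.

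**Figure D2:**
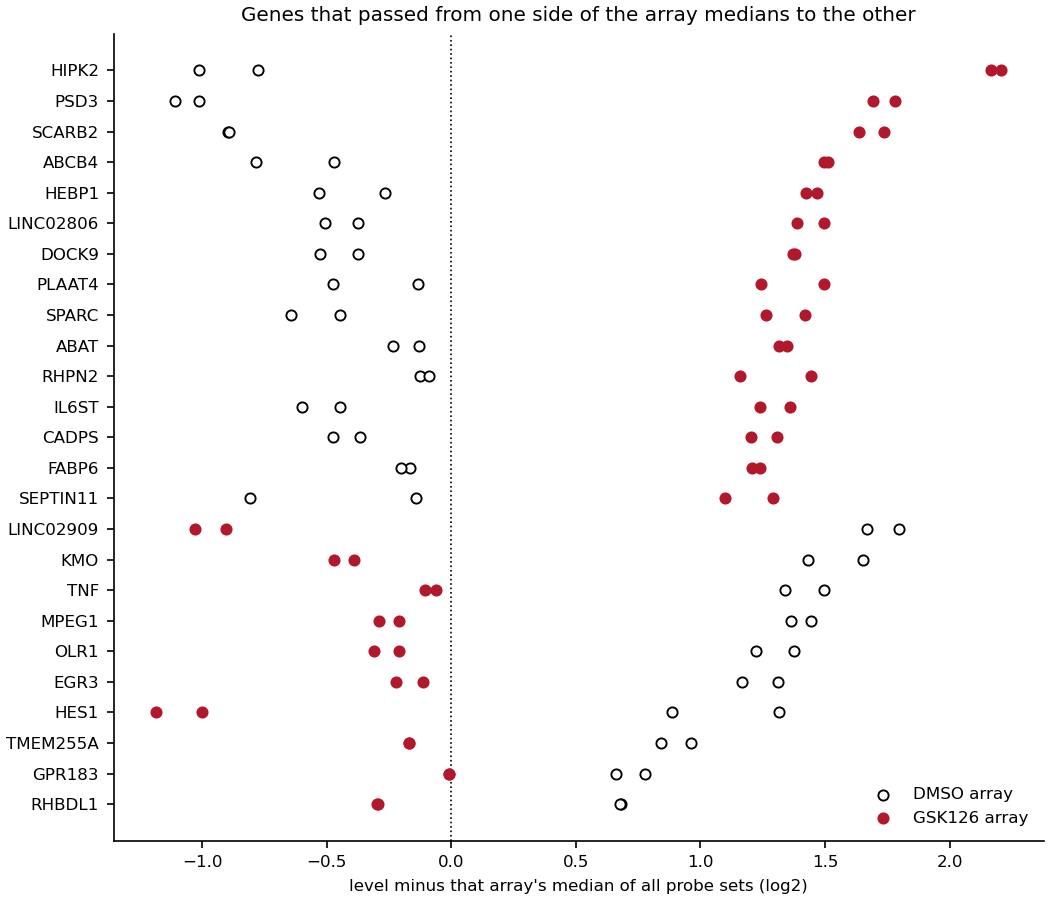
Level on each of the 4 arrays labelled NALM-6 minus the median of the same array (log2, horizontal) for the 15 genes with the highest bounds upward and the 10 downward; open points are DMSO arrays, filled points GSK126 arrays, and the dotted line is the array median. PSD3, HIPK2 and SCARB2 have the lowest DMSO means among the upper 15, and LINC02909 and HES1 lie lowest with GSK126 among the lower 10.

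Of the genes that crossed downward, the long non-coding RNA LINC02909 had the highest bound. It read 8.88 and 8.97 with DMSO and 6.31 and 6.21 with GSK126, and so fell by 1.70 or more. KMO, an enzyme of tryptophan breakdown, read 8.64 and 8.83 against 6.83 and 6.77. MPEG1, a pore-forming protein of phagocytes and B cells, read 8.58 and 8.62 against 7.01 and 6.95, and HES1, a repressor downstream of Notch, 8.10 and 8.50 against 6.22 and 6.05. TNF, EGR3, OLR1, TMEM255A, RHBDL1 and the migration receptor GPR183 were the others of the 10; GPR183 read 7.87 and 7.96 against 7.21 and 7.23.

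Some of the largest rises were in genes already near or above the medians with DMSO. CAV1, the main protein of caveolae, read 7.19 and 7.31 with DMSO, either side of the medians, and 10.25 and 10.33 with GSK126 (3.04 ± 0.15, adjusted p = 3.8e-06); its other probe set gave 2.24. SLC2A5, the fructose transporter, rose by 2.22, MACROD2 by 2.04, TENT5C, a poly(A) polymerase of plasma cells, by 2.03, DRAM1, a lysosomal regulator of autophagy, by 1.96 and the flippase ATP8B2 by 1.94. Below the medians with DMSO, and so with bounds, were ARHGAP18 (at least 0.74), NMT2 (0.71), GSAP (0.89), PDC (1.22), TARS3 (1.22), ZNF595 (1.12), DNAJC6 (1.03), GPRIN3 (0.615) and the immunoglobulin segment IGHV1-69 (0.07). Those from ARHGAP18 to GPRIN3 are among the genes that crossed upward. Of the genes called at least 2-fold either way, 147 had another probe set past the filter; for 128 another was called the same way, for 102 every other was, for 19 none was, and for 4 another was called the opposite way.

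Among the largest falls were genes of no list beside the groups described below. LINC00158, a long non-coding RNA, read 10.38 and 10.30 with DMSO and 7.58 and 7.78 with GSK126 and fell by 2.66. CYP39A1, an oxysterol hydroxylase, fell by 1.84, the zinc finger gene JAZF1 by 1.81, and LINC01857 fell by 1.75. The lymphocyte receptor GPR18 read 13.06 and 13.07 against 11.37 and 11.42 and fell by 1.67. VAV3 fell by 1.64, UAP1L1 by 1.62, GPR137B by 1.61 and the stress gene GADD45B by 1.61. All 3 VAV3 probe sets lay between -1.67 and -1.64.

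Genes of protein folding in the endoplasmic reticulum rose almost as a body. All 18 genes of the list were tested; 17 rose, none fell, and the median was 0.75, against 0.02 over all genes. ERN1, the sensor kinase and endonuclease that splices XBP1 mRNA, read 9.90 and 9.93 with DMSO and 11.61 and 11.57 with GSK126 (1.68 ± 0.05, adjusted p = 4.42e-07). HSP90B1, the reticulum's HSP90, read 10.42 and 10.60 against 11.84 and 11.86 (1.34 ± 0.06), SDF2L1 rose by 1.41 and the secreted survival factor MANF by 1.22. In each of these the GSK126 arrays lie above both DMSO arrays by more than 1. Chosen after their values were seen, the chaperone HSPA5 (BiP) rose by 0.96, CRELD2 by 0.87, PDIA4 by 0.79, HYOU1 by 0.77 and DNAJB9 by 0.76, and HERPUD1 was the one not called (-0.10). The difference of responses between the lines (NALM-6 minus SUP-B8 labels) was called above 0 for 17 of the 18. Over all 13161 genes tested it was called above 0 for 1903 and below 0 for 1440. The like counts of the lists below stand against those. In the arrays labelled SUP-B8 the list median was -0.03 and none was called.

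A letter pattern that few promoters hold was found in some promoters of this list, and 3 are shown as examples from members that rose. The endoplasmic reticulum stress element is CCAAT, 9 bases of any kind, and CCACG, here searched on both strands in RefSeq promoters (GRCh38.p14, 250 bases before to 50 after each gene's start). It was found in 6 of 18 promoters of the list (33.3%) and in 14 of 10568 promoters of genes tested (0.132%). Capitals mark the matches, each read 5′ to 3′ on the strand of the gene: HSP90B1 at chr12:103930216-103930344 (plus strand), HSPA5 at chr9:125241344-125241463 (minus strand) and XBP1 at chr22:28800570-28800689 (minus strand).
HSP90B1: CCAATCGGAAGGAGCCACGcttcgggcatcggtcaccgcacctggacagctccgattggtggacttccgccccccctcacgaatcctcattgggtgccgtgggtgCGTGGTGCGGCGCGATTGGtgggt
HSPA5: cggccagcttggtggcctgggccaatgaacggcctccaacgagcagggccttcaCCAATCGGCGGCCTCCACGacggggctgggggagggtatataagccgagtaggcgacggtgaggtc
XBP1: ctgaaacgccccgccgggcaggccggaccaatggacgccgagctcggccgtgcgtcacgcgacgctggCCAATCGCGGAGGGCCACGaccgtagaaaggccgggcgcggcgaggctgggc
The second match of HSP90B1 lies on the opposite strand. This motif, the NF-kB element and the interferon-stimulated element were added after the values were seen; a match is a description of letters, not of binding.

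Most tested genes of a plasma-cell list were called higher as well, with a few exceptions. Of 16 genes, 14 were tested, 10 rose and 1 fell, and the median was 0.54. The elongation factor ELL2, which favours secreted immunoglobulin, read 8.36 and 8.33 against 10.16 and 10.14 (1.80 ± 0.09), FKBP11 rose by 1.66, MZB1, a chaperone of antibody assembly, by 0.98, XBP1 by 0.67, the syndecan SDC1 by 0.67, IRF4 by 0.49 and CD38 by 0.33. PRDM1, the repressor that sets the plasma-cell programme, was not called (-0.09 ± 0.06), nor were JCHAIN (0.24) and POU2AF1 (0.11), and TNFRSF17 (BCMA) fell by 0.74. CAV1 is on this list and on the caveolar list, and XBP1 is on this list and on the reticulum list. The counts of these lists are therefore not separate results. The log2 of the summed level of 4 plasma-cell markers was 12.69 to 12.70 with DMSO and 13.05 to 13.13 with GSK126. It was also higher with GSK126 in the arrays labelled SUP-B8, at 12.305 to 12.313 against 12.039 to 12.062. For 9 of the 14 the response was called above, and for 1 below, that in the arrays labelled SUP-B8.

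Other genes of stress and supply moved in part. Among 18 ATF4-linked genes 8 rose and none fell: CHAC1, which degrades glutathione, rose by 1.34, the mTORC1 inhibitor DDIT4 by 1.31, the cystine transporter SLC7A11 by 0.83 and PCK2 by 0.83. DDIT3 (-0.07) and TRIB3 (-0.10), chosen after their values were seen, were not called. Golgi mannosidases and glycosyltransferases rose in 11 of 24 (in 7 without the first DMSO or the first GSK126 array) and fell in 5, led by MAN1A1 (1.60), GALNT12 (1.36) and MAN1A2 (1.15), while GCNT1 fell by 1.04. Of 21 glycolysis and hexose transport genes 10 rose and 1 fell, with ALDOC up by 1.10, PFKFB3 by 1.06 and SLC2A3 down: it fell by 1.02. Respiratory chain genes rose in none of 21 and fell in 2 (NDUFB3, which fell by 0.24, and NDUFS1, by 0.17). Cholesterol synthesis and sterol-regulated genes fell in 10 of 17 and rose in 3; HMGCS1 fell by 0.58, SC5D by 0.56 and the efflux pump ABCA1 by 0.88, and STARD4 rose by 0.61. The sterol element TCACNCCAC was in 1 of 15 promoters of that list (6.67%) and in 1.13% of all.

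Most genes of class I antigen presentation and of the interferon response rose. Of 17 class I genes 16 were tested, 14 rose, none fell, and the median was 0.53. NLRC5, the transactivator of class I genes, read 8.53 and 8.55 with DMSO and 10.34 and 10.15 with GSK126 (1.71 ± 0.07, adjusted p = 1.68e-06). The immunoproteasome subunit PSMB9 read 11.24 and 11.39 against 12.57 and 12.53 (1.23 ± 0.06), PSMB8 rose by 0.87 and HLA-F by 0.81. Chosen after their values were seen, the peptide transporter TAP2 rose by 0.80, HLA-C by 0.55, HLA-B by 0.52, TAP1 by 0.43 and B2M by 0.23, while ERAP2 (-0.06) and TAPBP (0.02) were not called. Class I heavy chain genes, like the IFITM genes and TUBB2A with TUBB2B below, are near-identical in sequence, so their separate values are uncertain. In 14 of 16 the response was called above that in the arrays labelled SUP-B8.

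Interferon-stimulated genes rose in 19 of 27 tested of 32 and fell in 1, with a median of 0.39. OAS1, which senses double-stranded RNA, read 8.18 and 8.40 against 10.18 and 9.69 (1.64 ± 0.15), IFITM1 rose by 1.06, the exonuclease ISG20 by 1.04 and MX2 by 1.02. The response was uneven: IFIT1 (-0.15), IFIT3 (-0.07) and OAS3 (-0.11) were not called, ISG15 rose by 0.16, and IFIH1 fell by 0.44, all 5 chosen after their values were seen. The chemokine CXCL10 read 8.13 and 8.54 against 9.95 and 9.99, a rise of 1.63 ± 0.18. Of 17 class II genes 6 rose (35.3%, against 20.8% of all genes; 3 without the first GSK126 array), HLA-DOA by 0.64, HLA-DMB by 0.38 and HLA-DMA by 0.36, HLA-DQB1 fell by 0.30, and CIITA was not called (-0.04).

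A pair of GAAA runs 2 bases apart, the core of the interferon-stimulated element, was in 7 of 14 class I promoters and in 2.66% of 10568. The promoter of TAP2 (chr6:32838740-32838859, minus strand) holds it in the gene's own direction and that of HLA-F (chr6:29723223-29723342, plus strand) on the opposite strand, and both are shown because these genes rose; capitals mark the element.
TAP2: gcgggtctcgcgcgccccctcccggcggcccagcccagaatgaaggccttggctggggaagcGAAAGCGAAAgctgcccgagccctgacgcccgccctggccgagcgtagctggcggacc
HLA-F: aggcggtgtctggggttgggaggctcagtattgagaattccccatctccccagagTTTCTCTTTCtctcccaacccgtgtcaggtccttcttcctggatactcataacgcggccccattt

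Most genes of the NF-kB list fell. Of 28 genes 25 were tested; 19 fell, 2 rose, and the median was -0.41. NFKBIE, an inhibitor that holds NF-kB in the cytosol, read 12.43 and 12.50 with DMSO and 10.19 and 10.26 with GSK126 (it fell by 2.24, SE 0.05, adjusted p = 2.21e-07). The chemokine CCL4 read 9.64 and 9.41 against 7.49 and 7.47, the adhesion molecule ICAM1 fell by 0.72 and the survival factor BCL2A1 by 1.05. Of the subunits, chosen after their values were seen, REL fell by 0.92, NFKB2 by 0.52, RELB by 0.39 and NFKB1 by 0.38, and RELA was not called (0.04). For 15 of the 25 the response was called below, and for 2 above, that in the arrays labelled SUP-B8.

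The TNF and lymphotoxin genes, which lie side by side on chromosome 6, fell together. LTA read 10.01 and 10.07 against 8.08 and 7.99 and fell by 2.004. TNF read 8.55 and 8.68 against 7.11 and 7.18, below the medians, and LTB read 11.88 and 11.93 against 10.56 and 10.62 and fell by 1.31. They were the one run of 3 neighbours among protein-coding genes of the RefSeq gene table whose members were all called at least 2-fold; OLR1 and TMEM52B were the other neighbours called lower, and MAN1A2 with TENT5C, TUBB2A with TUBB2B and FBXO16 with FZD3 the neighbours called higher. Those neighbours outside the naming rule were chosen after their values were seen. An LTB probe set read 0.03 besides. In the wider TNF and TNF receptor list 6 of 23 rose (3 without the first GSK126 array) and 10 fell; TNFSF10 (TRAIL) rose by 1.32.

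The NF-kB element, searched on both strands in its decameric consensus form, was in 8 of 20 promoters of the NF-kB list (40.0%) and in 13.1% of all. The promoters of LTB (chr6:31582447-31582566, minus strand) and REL (chr2:60881454-60881573, plus strand) are shown as examples of members that fell, with the element in capitals. In REL the capitals cover a match on each strand, which overlap.
LTB: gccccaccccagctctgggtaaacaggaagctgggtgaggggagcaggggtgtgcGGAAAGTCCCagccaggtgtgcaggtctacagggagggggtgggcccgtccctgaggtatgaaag
REL: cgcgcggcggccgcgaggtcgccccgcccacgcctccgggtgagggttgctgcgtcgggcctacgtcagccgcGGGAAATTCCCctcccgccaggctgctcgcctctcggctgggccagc

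Immediate-early genes, which are induced within minutes of a signal, fell in most of those tested. Of 16 immediate-early genes tested of 20, 10 fell and 2 rose, with a median of -0.44. EGR1 read 11.66 and 11.38 with DMSO and 8.81 and 8.72 with GSK126 and fell by 2.75 (SE 0.10, adjusted p = 1.26e-06). FOS read 7.71 and 7.90 against 6.15 and 6.24, below the medians, KLF10 fell by 1.395 and KLF6 by 0.89. MYC, the growth regulator, went the other way, with 12.21 and 12.26 against 12.87 and 12.81, a rise of 0.60 ± 0.05. In 10 of the 16 the response was called below, and in 2 above, that in the arrays labelled SUP-B8. Among 15 ERK feedback genes 6 fell and none rose, with a median of -0.11; without the first GSK126 array 3 were called higher. The name of that list is a heading, and whether each member answers to ERK signalling was not tested. The phosphatase DUSP10 read 9.99 and 10.002 against 8.61 and 8.71 and fell by 1.34, DUSP2 fell by 0.90 and DUSP5 by 0.54. DUSP1 read 9.37 and 9.73 against 7.75 and 7.76 in the probe set used, and its others gave -0.19 and 0.01. The Sprouty genes SPRY1, SPRY2 and SPRY4, chosen after their values were seen, were not called. Nor were DUSP4 (-0.27), DUSP6 (-0.11), SPRED1 (0.32), PHLDA1 (0.17), ETV4 (0.07) and ETV5 (0.08), chosen in the same way.

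Regulators of G-protein signalling and costimulatory molecules included some of the largest falls. RGS1 read 12.48 and 12.45 against 10.40 and 10.38 and fell by 2.08, RGS18 by 1.44 and RGS2 by 1.25, while RGS9 rose by at least 0.98; of 12 tested, 3 rose and 4 fell. SLAMF1 read 10.80 and 10.90 against 8.58 and 8.71 and fell by 2.21. CD274 (PD-L1) read 9.98 and 10.04 against 8.18 and 8.48, CD80 fell by 1.17, and LY9 rose by 1.09; in this list 7 of 12 fell and 2 rose. The cytokine IL10 fell by 1.204. In the cytoskeletal list 11 of 25 fell and 2 rose, with ACTN2 down from 10.13 and 10.28 to 7.98 and 8.23 and MYO1E, which fell by 1.25.

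Of 23 heat-shock chaperone and cochaperone genes 17 were tested, 9 fell and none rose, with a median of -0.26. DNAJB1, the HSP40 cochaperone and the gene that fell most, read 12.55 and 12.83 with DMSO and 9.71 and 9.70 with GSK126 (-2.985, SE 0.08, adjusted p = 4.42e-07), and its other probe set gave -2.91. HSPA6, a strictly inducible HSP70, read 9.10 and 9.53 against 7.30 and 7.32 and fell by 2.005, HSPH1 by 1.01 and CHORDC1 by 0.70. HSP90AA1, chosen after its value was seen, fell by 0.50, and HSP90AB1 and HSF1 were not called. Of the mitochondrial chaperonins on the list, HSPE1, also chosen after its value was seen, fell by 0.43, and HSPD1 was not called (-0.10). The heat-shock element core GAANNTTC was in 5 of 15 promoters of the list (33.3%) and in 4.62% of all. Those of HSPA6 (chr1:161524360-161524483, plus strand) and CHORDC1 (chr11:90223087-90223254, minus strand) are shown because they hold the core more than once; capitals mark it.
HSPA6: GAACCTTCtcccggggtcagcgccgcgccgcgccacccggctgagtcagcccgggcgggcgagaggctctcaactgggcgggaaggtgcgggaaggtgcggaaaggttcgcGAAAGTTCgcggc
CHORDC1: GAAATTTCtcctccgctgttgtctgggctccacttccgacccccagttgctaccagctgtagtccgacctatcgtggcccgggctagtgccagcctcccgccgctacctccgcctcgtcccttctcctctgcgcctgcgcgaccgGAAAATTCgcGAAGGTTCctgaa

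**Figure D3:**
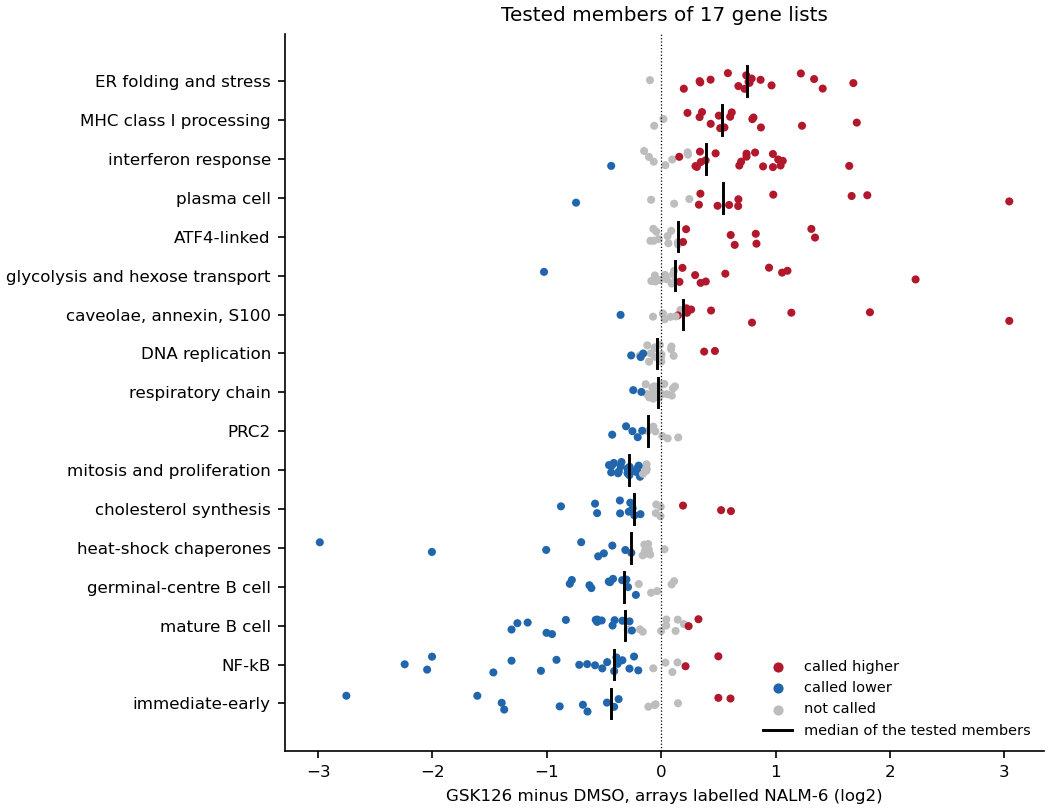
GSK126 minus DMSO (log2, horizontal) for each tested member of 17 gene lists (rows) on the arrays labelled NALM-6; red points were called higher, blue lower, grey not called, vertical offsets within a row only separate points, and black bars are list medians. The reticulum list has the highest median (0.75) and the immediate-early list the lowest (-0.44), while the medians of the replication and respiratory chain lists lie near 0.

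Genes of mature and germinal-centre B cells were lower with GSK126 in most of their called members. Of 16 germinal-centre genes tested of 20, 11 fell and none rose, with a median of -0.32: MYBL1 read 10.40 and 10.51 against 9.71 and 9.60 and fell by 0.80, IRAG2 (LRMP) by 0.78, MARCKSL1 by 0.63, LMO2 by 0.61 and BCL6, the master repressor of the germinal centre, by 0.46. S1PR2, SERPINA9, GCSAM, BACH2 and POU2AF1 were not called. Of 26 mature B-cell genes 15 fell and 2 rose, with a median of -0.32. MS4A1 read 13.33 and 13.34 against 12.37 and 12.40 and fell by 0.95, CD22 fell by 0.57, SPIB by 0.56, CR2 by 0.52 and CD40 by 0.28, SAMSN1 by 1.26, and FCRL1 fell by 1.003. IGHD and IGHM rose by 0.33 and 0.24. The log2 of the summed level of 7 mature B-cell markers was 14.83 to 14.88 with DMSO and 14.35 to 14.40 with GSK126. For 5 germinal-centre markers it was 14.16 to 14.21 and 13.76 to 13.79. In the arrays labelled SUP-B8 both sums were higher with GSK126. The mature sum was 11.87 to 11.91 against 11.70 to 11.74, the germinal-centre sum 12.105 to 12.134 against 11.81 to 11.88. The response was called below that in the arrays labelled SUP-B8 for 14 of the 26 mature and 6 of the 16 germinal-centre genes, and above it for none.

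Of 25 genes of early B-cell development 6 were higher (24%) and 3 lower (12%), against 20.8% and 18.5% of all genes; without the first or the second SUP-B8 DMSO array 5 were lower. CD79B, a signal chain of the B-cell receptor, rose by 0.56, PAX5 by 0.34 and BCL11A by 0.33, while the early factor EBF1 fell by 0.42 and MME (CD10) by 0.22. CD24 and IGLL1 were called with both treatments below the medians, so no size is given. The log2 of the summed level of the 9 precursor markers was 9.69 to 9.77 with DMSO and 9.78 to 9.80 with GSK126, against 15.92 to 15.98 on the SUP-B8 DMSO arrays. Among ETS and B-lineage factors 10 of 29 rose (6 without the second DMSO array) and 11 fell; ETV6, a repressor often rearranged in childhood leukaemia, read 8.77 and 8.92 against 10.63 and 10.72 (1.83 ± 0.06), ELK3 rose by 1.08 and MEF2C fell by 0.67. Of 2 T-cell genes called, IL2RB rose by 0.75 and the kinase LCK fell by 1.03.

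Mitotic genes fell by small amounts, and few replication genes were called. All 22 mitosis and proliferation genes were tested, 17 fell and none rose; the differences ran from -0.46 to -0.13, with a median of -0.28. PLK1 read 11.10 and 11.05 with DMSO and 10.54 and 10.69 with GSK126 (it fell by 0.46), CCNB1 by 0.44, MKI67 by 0.43 and TTK by 0.41. Of 20 replication genes 2 rose (CDC6 by 0.47, RRM2 by 0.38) and 3 fell, with a median of -0.04; after renewed quantile normalization 4 rose and 1 fell, and 1 fell without the first DMSO, the second DMSO or the second GSK126 array. Among 13 CDK inhibitors, cyclins and retinoblastoma proteins CCNE1 rose by 0.68 and CDKN1A by 0.37, and CDKN2D fell by 0.34, RBL1 and RBL2 by 0.27 each, CCND3 by 0.23 and CDKN3 by 0.20; the mean over the CCND3 probe sets was 0.04. Without the first DMSO, the second DMSO or the first GSK126 array 3 of the 13 fell, and 2 without the second GSK126 array. Against a 1.2-fold threshold 1 of the 17 falls among mitotic genes was called, and leaving out 1 array gave 12 to 17.

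Genes of growth restraint and death were divided. TSC22D3 (GILZ) read 9.72 and 9.88 against 11.40 and 11.46 and rose by 1.63, and TP53INP1 rose by 0.97 and SESN2 by 0.64. PIK3IP1, which restrains PI3K, fell by 0.999. Among 16 p53 targets 8 rose (5 without the first DMSO or the second GSK126 array) and 2 fell, and among 17 BCL2-family genes 3 rose and 6 fell, BIK by 0.62. Caveolar, annexin and S100 genes rose in 9 of 16 and fell in 1, with 5 higher without the first DMSO array; ANXA1 rose by at least 0.31, S100A10 by 1.14 and ANXA4 by 0.79. Of 27 lysosome genes, SCARB2 among them, 5 rose (18.5%) and 7 fell (25.9%), with 10 higher after renewed quantile normalization and 3 lower without the second GSK126 array; CTSB rose by 0.51 and NEU1 fell by 0.57. In the Notch list HEY2 rose by 0.99 while HES1 fell, and among clock genes BHLHE41 rose by at least 1.16 while its paralogue BHLHE40 fell by 1.975.

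**Figure D4:**
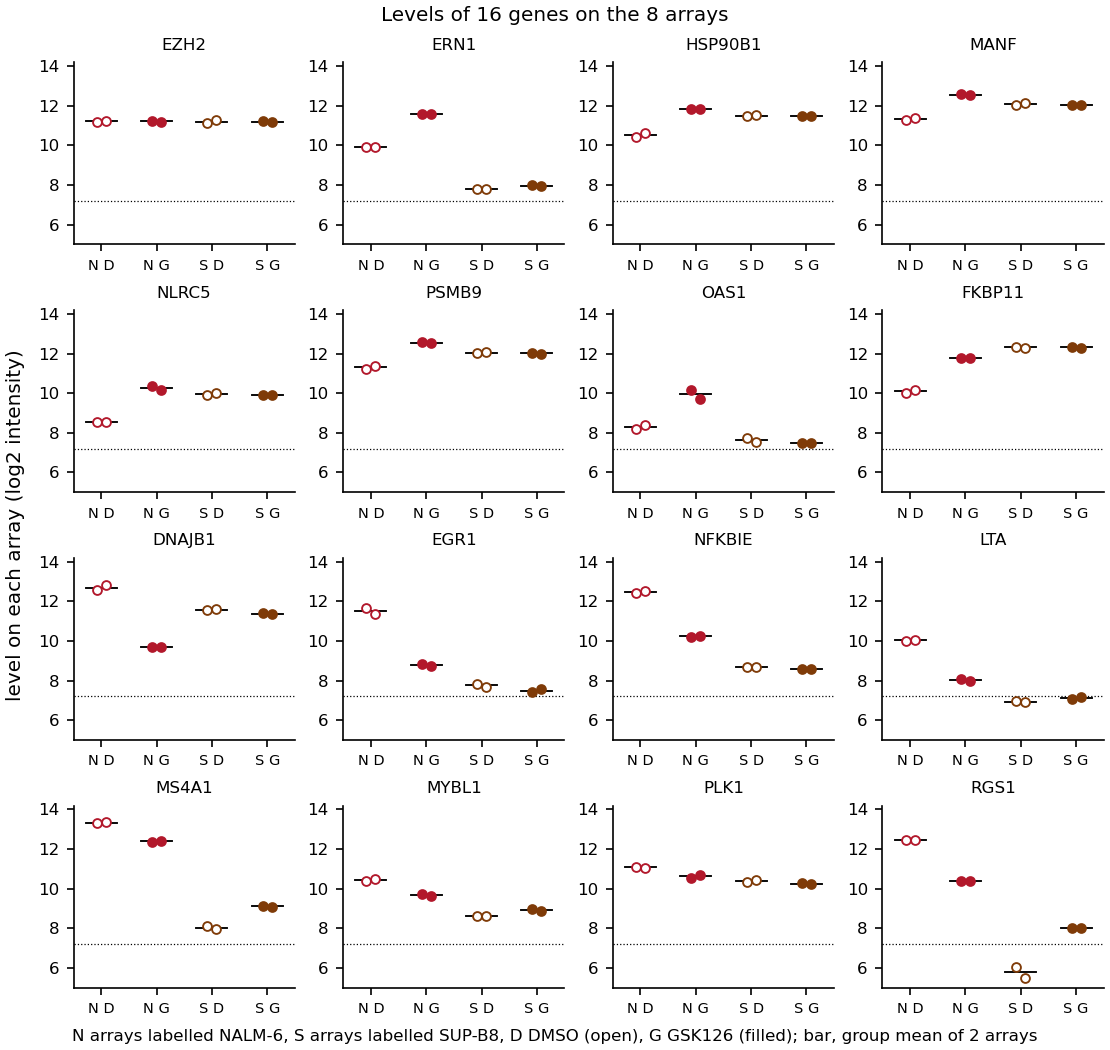
Level on each of the 8 arrays (log2 intensity, vertical) of 16 genes, with DMSO (open) and GSK126 (filled) arrays labelled NALM-6 on the left of each panel and SUP-B8 on the right; bars are group means of 2 arrays and the dotted line is the mean array median. EZH2 overlaps between treatments in both lines, the genes from ERN1 to FKBP11 are higher and those from DNAJB1 to RGS1 lower with GSK126 in the arrays labelled NALM-6, and RGS1 is higher with GSK126 in those labelled SUP-B8.

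The response differed between the lines for many genes. The difference of responses, taken as NALM-6 minus SUP-B8 in one model over all 8 arrays, was called for 3343 genes (25.4%), with 1903 above 0 and 1440 below. RGS1 had the largest difference: it fell in the arrays labelled NALM-6, and in those labelled SUP-B8 it read 6.03 and 5.51 with DMSO and 8.03 and 8.04 with GSK126. The fitted difference was -4.34 ± 0.195 (adjusted p = 1.1e-05), with no measured size, as the DMSO arrays labelled SUP-B8 lay below the medians. HIPK2, which was high in those arrays from the start (11.24 and 11.27), had a fitted difference of 2.92 ± 0.10, and CAV1, below the medians in them, of 3.29 ± 0.21. MAN1A1 rose in both lines, by 1.60 and 0.73, and DUSP10 fell in one and rose in the other (0.37). Of the genes called in each line 136 were called in both in the same direction, 123 higher and 13 lower, which is 2.63% of the calls in the arrays labelled NALM-6 and 45.9% of those in the arrays labelled SUP-B8. A further 57 were called in opposite directions, 46 of them lower in the arrays labelled NALM-6.

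**Figure D5:**
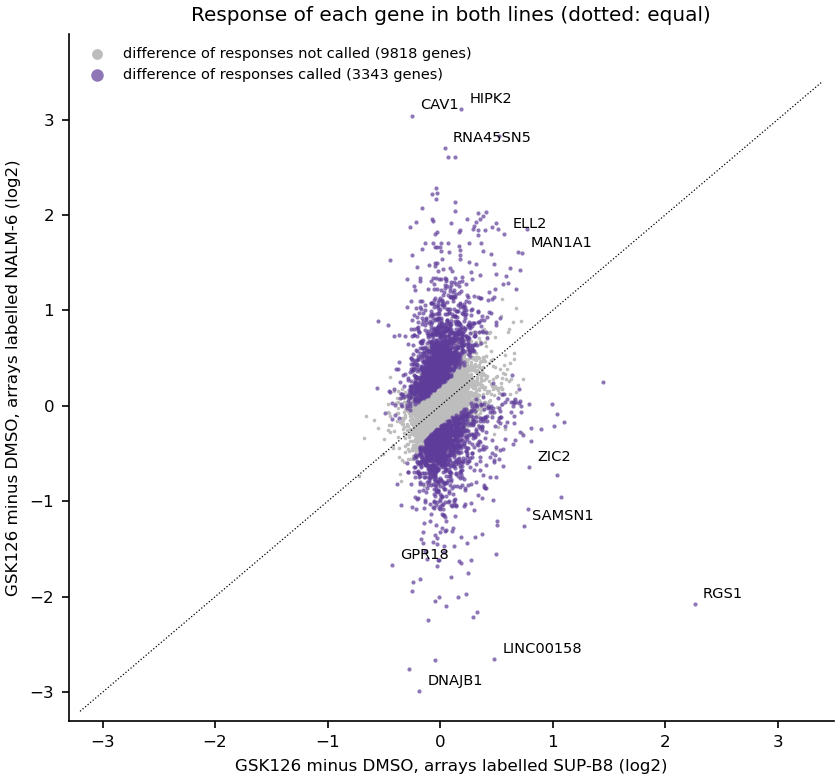
GSK126 minus DMSO (log2) in the arrays labelled NALM-6 (vertical) against the same in those labelled SUP-B8 (horizontal), 1 point per gene tested; purple points are the 3343 genes with a called difference of responses and the dotted line marks equal responses. The cloud is tall and narrow, and RGS1 lies alone at the lower right.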

How the data were processed

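The deposited table holds the authors' log2 intensities per probe set, used as given; MAS5 and RMA are named per the submitters' processing notes, with role, version and genome build not given in the sources used here. Such normalization hides a change shared by most transcripts. Gene names came from the annotation of the array design. Each gene was read from the probe set of highest mean over the 8 arrays, among those with 1 symbol. Differences, SEs and Benjamini-Hochberg adjusted p-values were computed with limma (3.58.1, R 4.3.3) from a mean per group and 4 residual degrees of freedom over all 8 arrays; Python version 3.11.15 made the tables.

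On simulated data of 13161 genes, with 100 genes changed by each size, the fit recovered 98% of log2 changes of 0.5 and 100% of 1, with 7.91% of calls false. The simulation used independent normal noise without shared array effects and changed far fewer genes than were called here. Its rates therefore do not carry over to these calls. Members and lists were chosen with earlier results of these data known. Genes were named as the 25 highest and 25 lowest differences without overlap, the 15 and 10 highest bounds of crossing genes, up to 4 called members per list (or the 2 largest where none was called), all PRC2 subunits, members of the CDK, B-cell and silenced lists where needed, and the 5 and 5 extreme differences of response. Same-numbered arrays showed no shared deviation: their deviations correlated at -0.018 (NALM-6) and -0.0417 (SUP-B8). With 2 arrays per group this cannot settle whether same-numbered arrays were prepared together, and the labels do not say. A check of CpG content was set aside because 73.7% to 76.8% of the crossing or 2-fold genes had a promoter in the RefSeq table. Of all genes tested, 80.3% had one. The lysosome motif was set aside as well (70.4% of that list), while the lists with a motif reported above had 80.0% or more. Alternatives covered filter, probe set, scaling, prior, arrays, a block, a fold threshold and each array's omission.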

Additional observations from a re-analysis of the deposited data

Results flagged for a closer look

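The difference between the responses of the lines, tested in one limma model over the 8 arrays, set apart 3343 genes. The 5 highest fitted differences (arrays labelled NALM-6 minus those labelled SUP-B8, log2) were those of CAV1 (3.292), HIPK2 (2.925), RNA45SN5 (2.661), ARHGAP18 (2.531) and SCARB2 (2.479). The 5 lowest were those of RGS1 (-4.34), LINC00158 (-3.137), DNAJB1 (-2.801), LINC02909 (-2.617) and SLAMF1 (-2.502). RNA45SN5 and DNAJB1 lay above the medians on all 8 arrays; the other 8 had at least 1 group with arrays below them, so their fitted differences are not measured sizes.

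Probe sets outside the gene tests were fitted as well. Of 4131 unnamed probe sets that passed the same filter, 1202 were called by limma. This is a smaller share than the 39.3% of the 13161 genes tested. At least 2-fold, 89 were called, 53 higher and 36 lower with GSK126. Among the genes tested 194 (1.47%) were called at least 2-fold higher and 91 (0.691%) at least 2-fold lower. Their genes are not named here.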

How the results depend on the processing

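The counts of calls over all genes kept within 1.5 times of their values under 18 alternatives, except under a fold threshold and with the mean of probe sets. Against a 1.2-fold threshold 908 genes were called higher and 564 lower, 23 crossed downward, and the difference of responses was called for 929; fewer small differences can pass that test by construction. With the mean of each gene's probe sets 120 genes were called at least 2-fold higher, and 5 named genes changed sign: ALCAM (-0.151), CCND3 (0.042), CD47 (-0.034), CNR1 (0.369) and EED (-1.04), of which ALCAM, CD47 and CCND3 had been called; the cause was not tested. Centring each array on its median put 46.2% of calls on the higher side (2255 higher, 2621 lower) instead of 52.9%. With the replicate block 2554 genes were called higher, 2176 lower and 2898 for the difference of responses. The replicate numbers were not found to pair the arrays, and none of these counts moved by over 1.5 times with the block. Leaving out 1 array gave 2005 to 2816 higher and 1717 to 2500 lower calls and 2346 to 3026 for the difference of responses, with the lone array of a group assumed to vary like the others. Of 241 called named genes 176 stayed called under every alternative, and 64 of the other 65 lost the call against the 1.2-fold threshold. The difference of responses could not be fitted with the 4 NALM-6 arrays alone. Of 96 list counts (48 lists, each direction), many of them small, 55 moved by over 1.5 times against the 1.2-fold threshold, 12 with the mean of probe sets, 13 with a trended robust prior, 9 after renewed quantile normalization, 5 with the replicate block and 14 to 16 without 1 NALM-6 array. Against the 1.2-fold threshold 11 NF-kB genes fell instead of 19, 11 interferon genes rose instead of 19, 9 mature B-cell genes fell instead of 15 and 5 germinal-centre genes instead of 11. Signal near the array medians limits the sizes of the crossing genes.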
